A study of Rattus norvegicus with 30 samples.

Results

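The 10 genes described here take part in the handling of circulating fat by capillary endothelium or in its transcriptional control: Lpl, Gpihbp1, Angptl4, Cd36, Slc27a3, Fabp4, Fabp5, Meox2, Tcf15 and Pparg. Rows were taken by gene name, from a list drawn up with earlier results of these data known. Of the 10, 9 matched a row by name among the 30562 gene rows, and all 9 passed the filter on low counts that left 16171 genes for testing. Cd36 matched no row by name and was not analysed here. The libraries came from wild-type rats. Lung cells carrying CD31, the surface form of the endothelial gene Pecam1, were collected with microbeads 3 weeks after an operation and sequenced in bulk. The operation was either a sham or the Glenn procedure, in which the superior vena cava is joined to a pulmonary artery. Each was combined with 1 of 3 diets that differed in vitamin A, named control, deficient and excess. The sample titles do not say whether a diet began before or after the operation. That made 6 groups of 5 libraries. No group was unoperated, so the sham groups carry surgery too, and strain, age and which lung was taken are not given in the sources used here. The labels number the libraries as replicates but do not say that each is a separate animal, so the p-values measure the spread between these libraries, which may be partly technical.

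Blood carries most fatty acids as triglyceride inside lipoprotein particles. Lipoprotein lipase (Lpl) is carried to the capillary lumen by the endothelial protein Gpihbp1, splits triglyceride there and is inhibited by Angptl4. Freed fatty acids are taken up by the scavenger receptor Cd36 and by transport proteins such as Slc27a3, and are then bound inside the cell by Fabp4 and Fabp5. Meox2 and Tcf15 form a transcription factor pair that drives lipid uptake genes in heart and muscle capillaries, and Pparg is a fatty acid-activated nuclear receptor whose known targets include Fabp4, Cd36 and Angptl4. In the lung, Lpl, Fabp5 and Pparg are also made outside the endothelium, among others by alveolar cells and macrophages.

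RefSeq promoters (build GRCr8) were at hand for 6 of the 10 genes, Pparg with a pair of start sites. The 3 below are shown because their genes belong to the regulator pair or changed most among those with a promoter: Meox2 at chr6:59583775-59584024 (plus strand), Tcf15 at chr3:161099051-161099300 (plus strand) and Angptl4 at chr7:15258682-15258931 (minus strand). Each is the 250 bases before the annotated start, written 5′ to 3′, and capitals mark every match to CANNTG, the E-box, which basic helix-loop-helix factors such as Tcf15 can bind.
Meox2: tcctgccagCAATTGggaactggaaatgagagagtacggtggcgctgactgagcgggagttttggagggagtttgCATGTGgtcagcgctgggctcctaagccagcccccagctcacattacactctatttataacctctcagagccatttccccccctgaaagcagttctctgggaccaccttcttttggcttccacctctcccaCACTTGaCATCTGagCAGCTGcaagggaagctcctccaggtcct
Tcf15: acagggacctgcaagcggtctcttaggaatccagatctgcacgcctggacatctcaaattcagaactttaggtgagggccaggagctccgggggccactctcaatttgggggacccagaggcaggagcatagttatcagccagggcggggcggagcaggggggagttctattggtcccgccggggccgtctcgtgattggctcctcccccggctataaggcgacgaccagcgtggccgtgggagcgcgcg
Angptl4: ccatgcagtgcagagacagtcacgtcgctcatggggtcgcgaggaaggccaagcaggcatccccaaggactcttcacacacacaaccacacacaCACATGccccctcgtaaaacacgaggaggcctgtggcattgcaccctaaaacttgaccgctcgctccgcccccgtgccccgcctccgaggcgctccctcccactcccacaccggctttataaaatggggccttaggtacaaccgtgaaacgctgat
The Meox2 promoter held 5 such matches, that of Angptl4 held 1 and that of Tcf15 held 0. Of 33469 RefSeq rat promoters of the same length, 65.5% held at least 1 on either strand, so the motif is common. The nuclear receptor half-site AGGTCA (14.1% of promoters) and the homeobox core TAATTA (4.86%), each searched on both strands, matched none of these 3. The hypoxia response core ACGTG (16.6%) matched Angptl4 once and neither of the others. A match is a description of letters, not a shown binding site.

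Assigned counts per library were between 22 M and 77.6 M, with a median of 40 M. Levels below are in CPM, that is, counts scaled to a common library size, and since they are not divided by transcript length they are compared between libraries, not between genes. Library names fell into 2 number ranges, here called series A (22 libraries) and series B (8 libraries). Series B held none of the control-diet or sham excess libraries, and it was a term of the model. Libraries also differed in the major histocompatibility transcript RT1-CE16 (13 high, 17 low) and in the Y-linked transcript Ddx3y (13 male, 17 female). Each group held 2 or 3 male libraries. RT1-CE16 was less even: sham excess held 0 high libraries, Glenn excess 3, and each other group 2 or 3. Every series B library was RT1-CE16-high. Within the deficient and excess diets, the series A libraries were the RT1-CE16-low ones. The 9 endothelial markers were all expressed, summing to between 8670 and 10800 CPM in sham and between 6440 and 9070 CPM in Glenn libraries. The RNA was not purely endothelial: 8 markers of type 2 alveolar cells, the surfactant-making epithelium, summed to between 37800 and 64700 CPM in sham and between 26700 and 60800 CPM in Glenn libraries. In such bulk samples, fewer cells of a type and less RNA per cell cannot be told apart.

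After the Glenn operation Lpl was lower and Angptl4, Fabp4 and Meox2 were higher than after sham in each of the 3 diets, while Gpihbp1, Slc27a3 and Tcf15 passed the test in no single diet. By edgeR's quasi-likelihood test at a Benjamini-Hochberg adjusted p under 0.05 over all tested genes, 4 of the 9 measured members changed on the control diet, 3 higher and 1 lower, against 24.9% of all genes (11.8% higher, 13.1% lower). On the deficient diet it was 6 of 9, 4 higher and 2 lower (27.4% of all genes, 13.7% in each direction), and on the excess diet 4 of 9, 3 higher and 1 lower (21.9% of all genes, 11.6% higher and 10.4% lower). Averaged over the diets, 5 rose (23.4% of all genes rose), 2 fell (24.7% of all genes fell) and 2 did not pass. The member share of 7 of 9 stands beside 48.2% for all genes. The median log2 change of the 9 was 0.53 averaged over diets, against -0.01 over all genes, so the median lay on the higher side, while Lpl and Fabp5 fell.

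**Figure D1:**
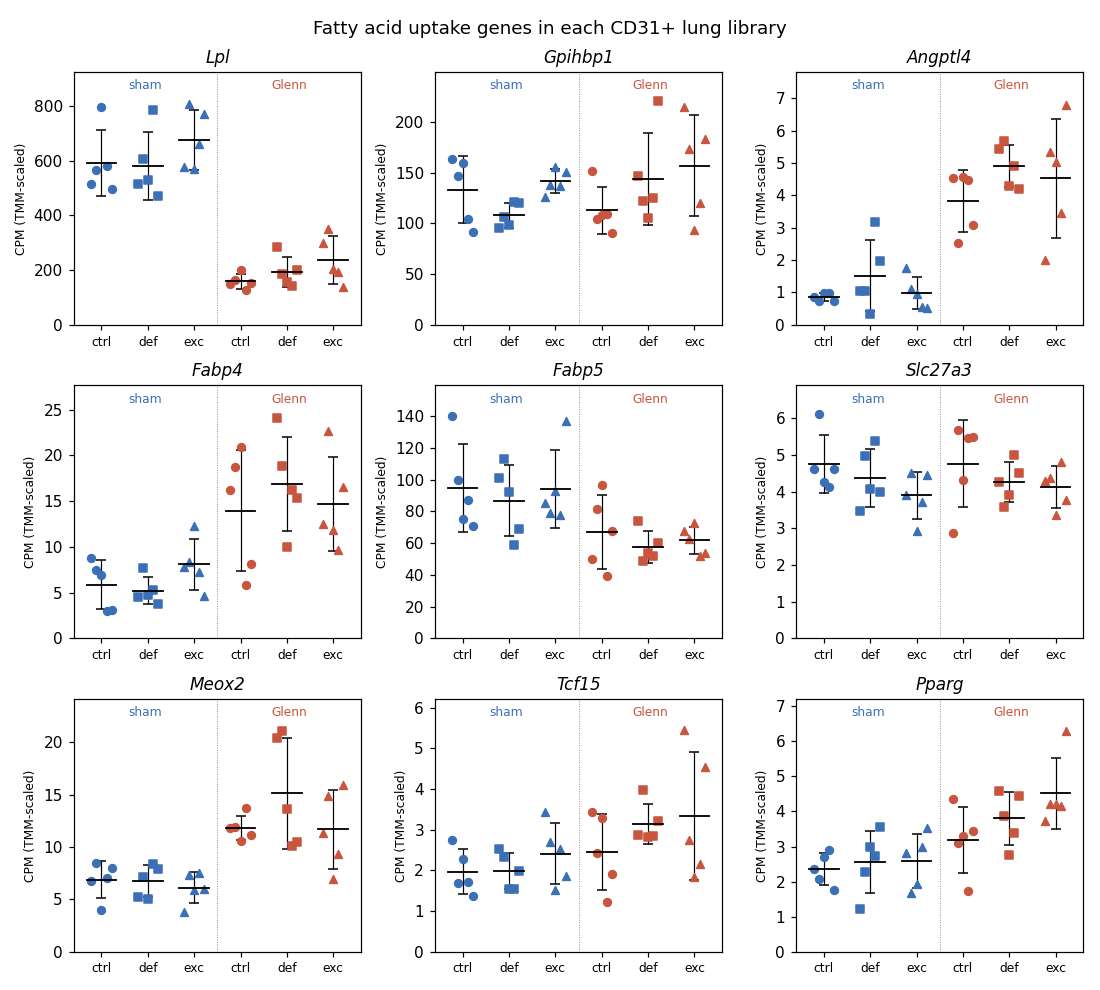
CPM of each of the 9 measured genes (y axis, linear, own scale per panel) in the 30 libraries by surgery and diet (x axis). Points are libraries and bars the mean ± SD of 5. All 15 Glenn libraries lie below all 15 sham libraries for Lpl, whereas Slc27a3 overlaps in every diet.

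Lpl (ENSRNOG00000012181), the lipase itself, was at 513, 564, 797, 580 and 497 CPM in the sham control-diet libraries and at 149, 164, 200, 126 and 154 CPM in the Glenn ones. With the deficient diet Lpl was at 516, 607, 529, 786 and 469 CPM in sham and at 283, 185, 156, 143 and 201 CPM in Glenn libraries. The excess-diet sham values were 576, 806, 568, 662 and 769 CPM and the Glenn values 298, 351, 203, 193 and 138 CPM. No Glenn library reached the level of any sham library. The mean was 616 ± 118 CPM (SD, n = 15) after sham and 196 ± 65.4 CPM (SD, n = 15) after Glenn, a log2 change averaged over diets of -1.64 (SE 0.11, edgeR adjusted p = 2.25e-12), which leaves 0.321 of the sham level. By diet the log2 change was -1.90 (SE 0.20, adjusted p = 2.85e-08) on control, -1.68 (SE 0.20, adjusted p = 2.73e-07) on deficient and -1.34 (SE 0.21, adjusted p = 2.94e-05) on excess. The averaged change was -1.45 in a fit of series A and -1.37 in one of the RT1-CE16-low libraries, and the change on the deficient diet was -1.79 within series B, each past the test.

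General capillary cells are the lung capillary type that acts as a progenitor of the others. Their 7 markers summed to between 7380 and 10500 CPM in sham and between 2920 and 6120 CPM in Glenn libraries, with no overlap. All 7 fell averaged over diets, from Ptprb (-0.24, adjusted p = 0.0113), Aplnr (-0.32), Kit (-0.57) and Edn1 (-0.99) to Sema3c (-1.47), Plvap (-1.69) and Glp1r (-3.26, adjusted p = 8.59e-16). Lpl and this sum had an r of 0.95 over the 30 libraries on log2(CPM + 1), and of 0.49 once group means were subtracted. Plvap weighs most in the sum, with a mean of 3350 CPM against 814 CPM for the next marker, Aplnr. The 7 markers of aerocytes, the other lung capillary type, also summed lower without overlap, from between 2250 and 3960 CPM to between 1370 and 2100 CPM. With Lpl the aerocyte sum had an r of 0.83 over 30 libraries and -0.02 within groups, and the endothelial sum 0.82 and 0.16. These figures describe libraries that share the surgery groups, and the part of the marker changes in the fall of Lpl was not tested. The sum over 8 type 2 alveolar markers overlapped between the surgeries, and the 8 alveolar macrophage markers summed to between 124 and 219 CPM after sham and between 138 and 214 CPM after Glenn. Of these 8, Marco was at 0 in 26 and Atp6v0d2 in 11 of 30 libraries. The other macrophage markers were at 0 in no library, with means of 118 (Abcg1), 30.3 (Olr1), 10.8 (Siglec5), 9.32 (Mrc1), 4.9 (Cd68) and 1.29 CPM (Itgax).

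Gpihbp1 (ENSRNOG00000064680), the anchor that presents Lpl in the lumen, behaved otherwise. Control-diet values were 163, 147, 159, 104 and 91.5 CPM in sham libraries and 152, 104, 108, 109 and 90.5 CPM in Glenn libraries. Deficient-diet values were 94.9, 106, 97.9, 121 and 120 CPM (sham) and 147, 122, 105, 125 and 220 CPM (Glenn). Excess-diet values were 126, 138, 155, 137 and 151 CPM (sham) and 215, 173, 93, 120 and 183 CPM (Glenn). The surgeries overlapped in every diet. The mean was 127 ± 24.6 CPM after sham and 138 ± 42.5 CPM after Glenn (SD, n = 15 each), with an averaged log2 change of 0.10 (95% interval -0.14 to 0.35, edgeR adjusted p = 0.502). Gpihbp1 passed on the deficient diet when the compared groups were fitted alone (0.46, adjusted p = 0.0469) and on the excess diet within RT1-CE16-low libraries (0.47, adjusted p = 0.0387). The RT1-CE16-low set holds only 2 Glenn excess libraries (215 and 173 CPM). Series A holds the same libraries on that diet, and its fit gave 0.47 without passing (adjusted p = 0.13). The ratio of Lpl to Gpihbp1 in CPM, which is not corrected for length, had a median of 5.08 (3.15 to 6.48) in sham and 1.52 (0.755 to 2.18) in Glenn libraries, again with no overlap. Gpihbp1 had an r with the general capillary marker sum of 0.09 over the 30 libraries and 0.52 within groups.

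Angptl4 (ENSRNOG00000007545), a secreted inhibitor of Lpl, was scarce and rose. On the control diet it was at 0.858, 0.742, 0.988, 0.971 and 0.729 CPM in sham libraries and 4.53, 2.53, 4.56, 4.47 and 3.08 CPM in Glenn libraries. The deficient diet gave 1.06, 1.05, 0.345, 3.18 and 1.96 CPM in sham libraries and 5.45, 5.69, 4.30, 4.91 and 4.21 CPM in Glenn libraries. The excess diet gave 1.76, 1.12, 0.954, 0.542 and 0.526 CPM in sham libraries and 2.01, 5.35, 5.05, 3.45 and 6.79 CPM in Glenn libraries. Within each diet every Glenn library was above every sham library, and 12 of 15 Glenn libraries were above all 15 sham libraries. The averaged log2 change was 1.98 (SE 0.22, edgeR adjusted p = 1.33e-08), a fold of 3.93, from 1.12 ± 0.710 to 4.43 ± 1.25 CPM (SD, n = 15 each). By diet it was 2.16 on control (adjusted p = 8.03e-05), 1.81 on deficient (adjusted p = 0.000713) and 1.97 on excess (adjusted p = 0.000829). The rise on the deficient diet was 1.30 within series B and 1.31 within the RT1-CE16-high libraries. On that diet both sets are the same 3 sham and 2 Glenn libraries, and neither of these smaller fits passed. In male libraries alone Angptl4 passed on neither the control (2.28, adjusted p = 0.073) nor the excess diet (1.76, adjusted p = 0.243). Lpl per Angptl4 in CPM went from a median of 598 (239 to 1530) in sham to 43.9 (20.3 to 148) in Glenn libraries.

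Markers of other cells rose alongside Angptl4. The 8 mural cell markers, of pericytes and smooth muscle, summed to between 125 and 318 CPM in sham and between 388 and 1750 CPM in Glenn libraries, and the 7 lymphatic markers went from between 1100 and 2020 CPM to between 2490 and 5120 CPM. With Angptl4, r was 0.80 for the mural sum and 0.87 for the lymphatic sum over 30 libraries, and -0.04 and 0.35 within groups. These were not the only lists to run with it. For markers of type 1 alveolar cells r was 0.67, and 0.22 within groups. For markers of pulmonary vein cardiomyocytes it was 0.66 and -0.08. The part of these cells in the rise of Angptl4 was not tested. Adipocytes are a known source of Angptl4 and Fabp4. Each of their 8 markers stayed under a mean of 1 CPM, and they summed to between 0.0972 and 1.25 CPM in sham and between 0.327 and 1.72 CPM in Glenn libraries, with Plin1 at 0 in 21 libraries. The median of this sum was 0.578 CPM in sham and 0.843 CPM in Glenn libraries, and its r with Angptl4 was 0.37 over 30 libraries and 0.11 within groups.

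For uptake across the membrane, Slc27a3 (ENSRNOG00000015421), an acyl-CoA synthetase of the fatty acid transport protein family, was at a median of 4.27 CPM (2.92 to 6.11) in sham and 4.32 CPM (2.86 to 5.68) in Glenn libraries. Its averaged log2 change was 0.00 (95% interval -0.21 to 0.22, edgeR adjusted p = 0.982), and by diet 0.00, -0.03 and 0.04. Cd36l1 (ENSRNOG00000005906), the gene next to Cd36 on the RefSeq rat assembly GRCr8, has a row of its own. It was not listed and was named after its values were seen. Near-identical copies can exchange reads, so its value is uncertain as to which copy it stands for. Its mean went from 111 ± 25 to 83.4 ± 14.0 CPM (SD, n = 15 per surgery). The log2 change averaged over diets was -0.39 (SE 0.10, adjusted p = 0.00292), and it passed in no single diet (-0.27, -0.43 and -0.47). Cd36l1 had an r of 0.83 with the type 2 alveolar marker sum over 30 libraries and of 0.81 within groups. That sum had a median of 45900 CPM in sham and 32500 CPM in Glenn libraries, and its part in the fall of Cd36l1 was not tested.

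The 2 intracellular carriers moved in opposite directions. Fabp4 (ENSRNOG00000010805), the adipocyte and capillary fatty acid-binding protein, was at 8.81, 7.47, 6.97, 2.99 and 3.07 CPM in sham and at 16.2, 18.7, 20.9, 5.80 and 8.18 CPM in Glenn libraries on the control diet. Deficient-diet libraries held 4.50, 7.73, 4.77, 5.29 and 3.78 CPM in sham libraries and 24.1, 18.8, 10, 16.2 and 15.3 CPM in Glenn libraries, with no overlap. Excess-diet libraries held 7.81, 8.39, 12.3, 7.22 and 4.68 CPM in sham libraries and 12.5, 22.7, 11.9, 9.66 and 16.6 CPM in Glenn libraries. The Glenn values overlapped the sham values on the control and excess diets, and replicates 4 and 5 were low in both control-diet groups. Averaged over diets Fabp4 rose by 1.31 on the log2 scale (SE 0.20, edgeR adjusted p = 4.46e-06), from 6.38 ± 2.54 to 15.2 ± 5.41 CPM (SD, n = 15 each). By diet the log2 change was 1.25 (adjusted p = 0.00755), 1.64 (adjusted p = 0.000771) and 1.05 (adjusted p = 0.0419) on control, deficient and excess. On the control diet the call was lost in fits of the compared groups alone (1.26, adjusted p = 0.0506), of RT1-CE16-low (1.2), RT1-CE16-high (0.70) and male libraries (0.48), and on the deficient diet in fits of series A (1.53) and of female libraries (1.29). The excess-diet call was lost without the series term (0.86), without the filter (1.06), in fits of series A (1.14), females (1.1) and males (1.13), and when any of 6 of the 10 excess-diet libraries was left out (over all 10, 0.81 to 1.25, adjusted p from 0.0224 to 0.202). On this diet the series A libraries are also the RT1-CE16-low ones, whose fit gave the same change and kept the call (1.14, adjusted p = 0.0376).

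Fabp4 had an r of 0.55 with the adipocyte marker sum over 30 libraries and of 0.60 within groups, 0.70 and 0.10 with the lymphatic sum, and 0.64 and -0.05 with the mural sum. The part of these cells in the rise of Fabp4 was not tested.

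Fabp4 also differed by a feature of the libraries. With RT1-CE16 in place of series in the model, low libraries were above high ones by 0.66 (SE 0.19, adjusted p = 0.0299), the only one of the 9 members to pass for this term, against 6.53% of all genes. In sham libraries Fabp4 was at 7.65 ± 2.30 CPM (SD, n = 9) where RT1-CE16 was low and at 4.48 ± 1.53 CPM (SD, n = 6) where it was high. The same means in Glenn libraries were 18.0 ± 4.86 CPM (n = 8) and 11.9 ± 4.23 CPM (n = 7). The averaged rise after Glenn was 1.29 within the low libraries. By edgeR 0 of 9 members passed for series B against series A (1.64% of all genes did) and 0 for male against female libraries (0.0804% of all genes did). At an unadjusted p under 0.05 the counts were 3 for RT1-CE16, 1 for series and 0 for sex, and no other tool was run on them. For RT1-CE16, Fabp5 was at 0.38 (adjusted p = 0.0658) and Tcf15 at 0.47 (adjusted p = 0.0933), also higher in the low libraries.

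Fabp5 (ENSRNOG00000049075), the epidermal-type carrier that the endothelium shares with many cells, was at 140, 99.9, 75, 87.4 and 71.1 CPM in sham libraries and 50, 81.4, 96.8, 39.2 and 67.8 CPM in Glenn libraries on the control diet. Those on the deficient diet held 101, 113, 92.1, 58.8 and 68.9 CPM in sham libraries and 73.7, 48.9, 53.8, 51.6 and 59.8 CPM in Glenn libraries. Those on the excess diet held 85.1, 79.0, 92.8, 77.5 and 137 CPM in sham libraries and 67.4, 62.4, 72.8, 52.2 and 54.1 CPM in Glenn libraries. The surgeries overlapped on the first 2 diets and not on the excess diet. Averaged over diets Fabp5 fell by 0.53 on the log2 scale (SE 0.13, edgeR adjusted p = 0.0013), from 91.9 ± 23.5 to 62.1 ± 14.8 CPM (SD, n = 15 each). It passed on the deficient diet alone (-0.62, adjusted p = 0.0343), with -0.50 on control (adjusted p = 0.0954) and -0.46 on excess (adjusted p = 0.192). The deficient-diet call was lost when any of 6 of its 10 libraries was left out, with limma voom (-0.54, adjusted p = 0.0537), without the filter (adjusted p = 0.0591) and in each fit within series, RT1-CE16 level or sex (-0.86 to -0.39). On control it was gained with RT1-CE16 in place of series (-0.57, adjusted p = 0.0314) in males (-1.27, adjusted p = 0.0234) and without Glenn control replicate 3 (-0.67, adjusted p = 0.0284; -0.67 to -0.31 over the 10 libraries), and on excess without the series term (-0.61, adjusted p = 0.0406). The averaged call was lost in a fit of the female libraries (-0.28, adjusted p = 0.107). Fabp5 followed the type 2 alveolar marker sum, with an r of 0.85 over 30 libraries and 0.81 within groups. The part of that sum, whose medians are given above for Cd36l1, in the fall of Fabp5 was not tested.

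**Figure D2:**
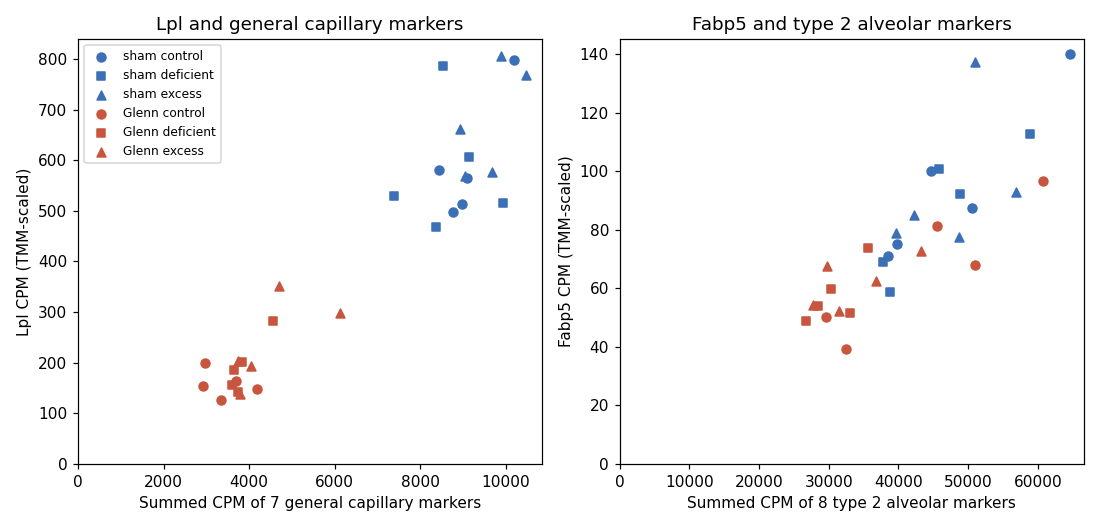
Lpl against the summed CPM of 7 general capillary markers (left) and Fabp5 against the summed CPM of 8 type 2 alveolar markers (right), both axes in CPM, 1 point per library (30), coloured by surgery. The sham and Glenn libraries form separate clouds on the left and overlap on the right.

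The homeobox factor Meox2 (ENSRNOG00000006588) was at 6.74, 8.52, 3.98, 7.09 and 8.04 CPM in sham libraries and 11.8, 11.9, 10.6, 13.7 and 11.2 CPM in Glenn libraries on the control diet. For the deficient diet the values were 5.22, 7.14, 5.08, 8.37 and 7.88 CPM in sham libraries and 20.4, 21.1, 13.6, 10.1 and 10.5 CPM in Glenn libraries. For the excess diet the values were 3.84, 7.36, 5.88, 7.56 and 6.03 CPM in sham libraries and 11.3, 14.9, 6.98, 9.33 and 15.9 CPM in Glenn libraries. Of the 15 Glenn libraries 14 were above all 15 sham libraries, and replicate 3 of the excess diet was the exception. The averaged log2 change was 0.98 (SE 0.13, edgeR adjusted p = 4.94e-07), from 6.58 ± 1.51 to 12.9 ± 3.90 CPM (SD, n = 15 each). By diet it was 0.78 (adjusted p = 0.0118), 1.06 (adjusted p = 0.00131) and 1.11 (adjusted p = 0.00183) on control, deficient and excess. It was 0.71 in a fit of female and 1.42 in a fit of male libraries, both past the test, and this difference was not tested. The control-diet call was lost in each fit within RT1-CE16 level or sex (0.54 to 1.25), and the excess-diet call in males (1.49, adjusted p = 0.0547). The deficient-diet call was lost within series B and the RT1-CE16-high libraries (0.53 in both), which are the same libraries on that diet. Meox2 had an r of 0.81 with the lymphatic and 0.78 with the mural marker sum over 30 libraries, and of 0.38 and 0.19 within groups. The part of these cells in its rise was not tested.

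Tcf15 (ENSRNOG00000000012), the partner of Meox2, was at a median of 1.99 CPM (1.38 to 3.43) in sham and 2.85 CPM (1.23 to 5.44) in Glenn libraries. Its averaged log2 change was 0.53 (SE 0.17, edgeR adjusted p = 0.00923), and by diet it was 0.32, 0.61 and 0.67 with none past the test, although the groups did not overlap on the deficient diet. With the compared groups fitted alone it passed on that diet (0.62, adjusted p = 0.0379). The averaged call was lost in fits of series A (0.50, adjusted p = 0.0644), of RT1-CE16-low libraries (0.55, adjusted p = 0.056) and of male libraries (0.44, adjusted p = 0.359). Pparg (ENSRNOG00000008839) was at a median of 2.70 CPM (1.21 to 3.56) in sham and 3.88 CPM (1.73 to 6.30) in Glenn libraries, and 9 of the 15 Glenn libraries were above all sham libraries. It rose by 0.56 averaged over diets (SE 0.14, adjusted p = 0.00143). Per diet it passed on deficient (0.70, adjusted p = 0.0374), with 0.43 on control (adjusted p = 0.207) and 0.56 on excess (adjusted p = 0.142). The deficient-diet call was lost when any of 6 of its 10 libraries was left out (0.50 to 0.83 over all 10), without the series term (0.58, adjusted p = 0.0913), without the filter (adjusted p = 0.0512), in the compared groups alone (0.72, adjusted p = 0.0561), with an RT1-CE16 term (0.63, adjusted p = 0.0672) and in each fit within series, RT1-CE16 level or sex (0.34 to 1.11). On excess Pparg passed without the series term (0.80, adjusted p = 0.018). The averaged call was lost in male libraries (0.52, adjusted p = 0.212).

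**Figure D3:**
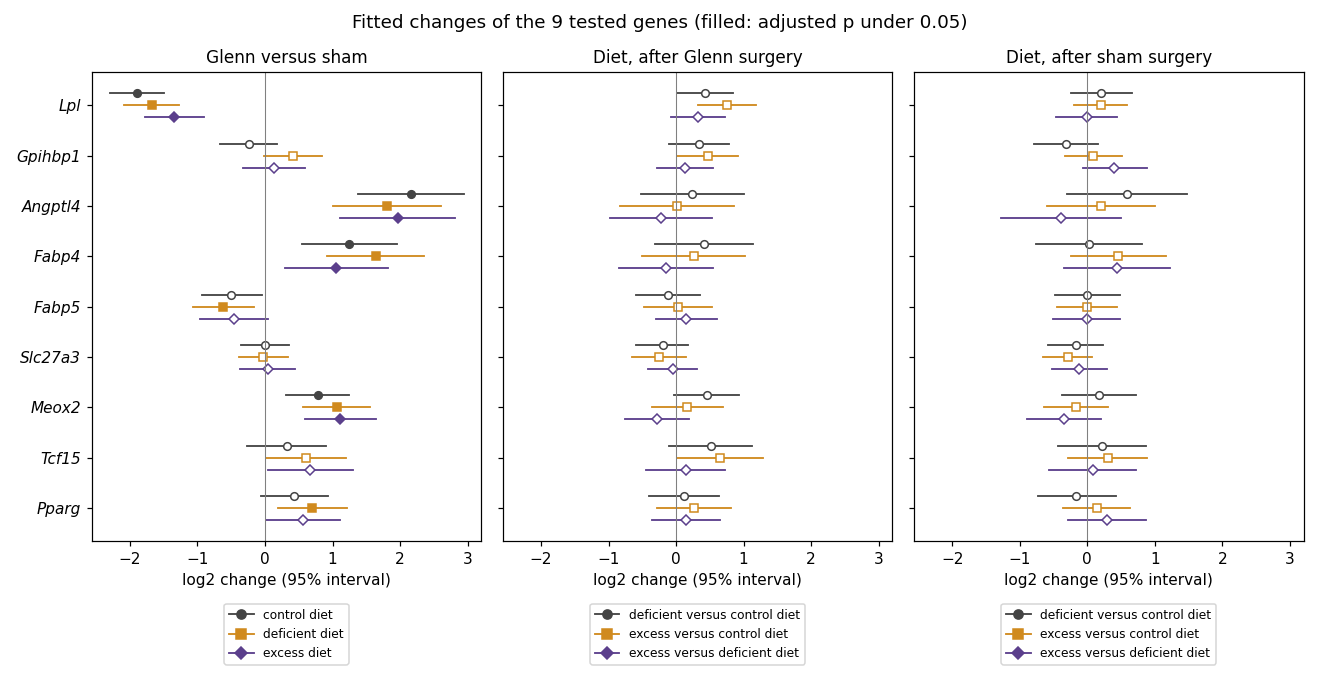
Log2 change with its 95% interval (x axis) for the 9 measured genes (y axis), for Glenn against sham by diet (left), and for the diets after Glenn (middle) and after sham (right). Filled symbols passed an adjusted p under 0.05. Lpl lies left of 0 and Angptl4, Fabp4 and Meox2 right of 0 in every diet, and no symbol is filled in either diet panel.

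Diet moved no member past the test. By edgeR 0 of 9 passed in each of the 6 diet comparisons. Over all genes 0% passed for deficient against control, 0.241% for excess against control and 0.0124% for excess against deficient diet after sham. After Glenn these shares were 0.00618%, 1.47% and 0%. The 1.47%, which is 237 genes, depended on the fit. It was 19 genes without the series term, 524 by DESeq2, and 2 to 557 with 1 library left out. At an unadjusted p under 0.05 the member counts were 0 in the 3 sham comparisons, and 1, 3 and 0 after Glenn. DESeq2 and limma voom also called 0, except for 1 each in excess against control after Glenn, which was Lpl. There Lpl was higher on the excess diet by 0.75 (95% interval 0.32 to 1.18, edgeR adjusted p = 0.0648), with an adjusted p of 0.0183 by DESeq2 and 0.0442 by limma voom. Within series A the Lpl difference was 1.03 (adjusted p = 0.0151) and that of Gpihbp1 0.78 (adjusted p = 0.0474), where Gpihbp1 was at 0.47 (adjusted p = 0.339) in all libraries. Series A holds only 2 of the 5 Glenn excess libraries. The RT1-CE16-low fit, with the same 2 Glenn excess libraries, called 0 members in this comparison. Leaving out 1 library moved the Lpl value between 0.57 and 0.85, and it passed without Glenn excess replicate 5 (adjusted p = 0.0354; the 10 adjusted p-values ran up to 0.317). Tcf15 was at 0.65 in the same comparison (adjusted p = 0.341), and the other 6 members lay between -0.26 (Slc27a3) and 0.27 (Pparg), each with an interval that spanned 0. Among sham libraries, Gpihbp1 on the excess diet (126 to 155 CPM) lay above all those on the deficient diet (94.9 to 121 CPM), a difference of 0.40 with an adjusted p of 1.

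The Glenn effect was also compared between diets. By edgeR 0 of 9 members passed in the 3 interaction tests (0%, 0.0186% and 0% of all genes), and DESeq2 and limma voom called 0 as well. At an unadjusted p under 0.05 the count was 1, for deficient minus control. That was Gpihbp1, with a difference of 0.66 (SE 0.29, 95% interval 0.06 to 1.25, adjusted p = 0.996), where its Glenn change was -0.24 on control and 0.42 on deficient. Without Glenn deficient replicate 5, the library at 220 CPM, the deficient-diet change of Gpihbp1 was 0.15 (adjusted p = 0.652). For Lpl the excess effect minus the control effect was 0.56 (95% interval -0.03 to 1.14, adjusted p = 0.696). For Angptl4 it was -0.19 with an interval from -1.34 to 0.96, so the interval is wide at this depth and spread.

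Members were compared with each other over the 30 libraries on log2(CPM + 1), as a description, since all share the surgery groups. Lpl and Angptl4 ran opposite (r = -0.81), but r was -0.04 once group means were subtracted, and Meox2 and Angptl4 went from 0.76 to 0.22. The pairs with an r of at least 0.4 on both measures were Gpihbp1 with Tcf15 (0.54 and 0.48), Fabp4 with Tcf15 (0.63 and 0.44) and Fabp4 with Gpihbp1 (0.41 and 0.44). Meox2 and Tcf15, the factor pair, were at 0.38 and 0.05. Gpihbp1 and Lpl were at 0.06 and 0.31.

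The gene most like each member in its pattern over the 30 libraries was also recorded. For Lpl it was Pltp, the phospholipid transfer protein (r = 0.962, 0.645 within groups), then Hyal2 (0.961 and 0.593). For Fabp5 it was Lyz2, a lysozyme of macrophages and rodent type 2 cells (0.922 and 0.878), then Slc25a1, the mitochondrial citrate carrier (0.882 and 0.819). Angptl4 was nearest to Rgs16 (0.931 and 0.719) and Igfbp4 (0.923 and 0.591). Meox2 was nearest to Tmem178a (0.891 and 0.735) and Adamts8 (0.890 and 0.735). Fabp4 was nearest to Plaur (0.838 and 0.579) and Rps3l1 (0.830 and 0.645). Tcf15 was nearest to Ndufa7 (0.829 and 0.788) and Gnas (0.813 and 0.751), and Gpihbp1 to Ndufa7 (0.670 and 0.693) and Rflnb (0.666 and 0.555). Pparg was nearest to Vwa1 (0.765 and 0.517) and Macir (0.754 and 0.545), and Slc27a3 to Pla2g5 (0.608 and 0.610) and Fdxr (0.600 and 0.596). Slc27a3 had the weakest best match of the 9.

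Other genes of fat handling were read from fixed lists, again averaged over the diets by edgeR, where 48.2% of all genes passed, 23.4% higher and 24.7% lower. The shares called in the 5 lists lay near or somewhat above that background and say nothing particular about the lists. Of 16 lipase and lipoprotein genes, 6 rose, 4 fell and 6 did not pass. Scarb1, the lipoprotein receptor that takes up cholesterol esters, rose from 189 ± 21.7 to 613 ± 104 CPM (SD, n = 15 each) with no overlap, a log2 change of 1.70 (SE 0.08, adjusted p = 9.19e-17). Lmf1, the chaperone that matures Lpl, fell by 0.33 (SE 0.06, adjusted p = 1.72e-05), and Lipg, the endothelial lipase, was at 0.50 (adjusted p = 0.0716). Vldlr, a receptor for triglyceride-rich particles, was at 0.09 averaged (adjusted p = 0.347). It fell by 0.44 on the control diet (adjusted p = 0.0153) and rose by 0.42 on the deficient diet (adjusted p = 0.0236). The difference between these 2 Vldlr effects was 0.86 (SE 0.19, unadjusted p = 0.00012, edgeR adjusted p = 0.757).

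Of 12 tested genes of other fatty acid transport and activation (18 listed), 2 rose, 5 fell and 5 did not pass (48.2% of all genes passed). Slc27a4, a transport protein of the same family as Slc27a3, fell by 0.26 (adjusted p = 3.8e-05), whereas Slc27a1 rose by 0.14 (adjusted p = 0.00396). Acsl1, which activates fatty acids with coenzyme A, fell by 0.20 (adjusted p = 0.0155). After Glenn it was lower on excess than on control by edgeR (-0.49, adjusted p = 0.0497), only just past the test. The libraries overlapped there (33.2 to 52.3 CPM on excess, 42.8 to 64.6 CPM on control). This call was not checked in the alternative fits, in which the number of genes passing in this comparison varied widely. Fabp3 was at 0.23 (adjusted p = 0.404) and Mfsd2a, a lysolipid transporter, at -0.60 (adjusted p = 0.0576).

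Inside the cell, 3 of 14 tested lipid droplet and triglyceride genes (16 listed) rose, 5 fell and 6 did not pass (48.2% of all genes passed). Hilpda, an inhibitor of triglyceride breakdown, fell by 0.33 (adjusted p = 9.82e-05) and Pnpla2, the lipase it inhibits, rose by 0.14 (adjusted p = 0.012). Plin2, a droplet coat protein, was at -0.05 and Dgat2 at 0.06, neither past the test. Of 20 fatty acid oxidation genes 4 rose, 7 fell and 9 did not pass, beside the same background. Pdk4, the kinase that restrains pyruvate oxidation when fat is burned, rose by 1.16 (SE 0.16, adjusted p = 5.37e-07), from 8.32 ± 2.22 to 18.4 ± 7.58 CPM (SD, n = 15 each), and its groups did not overlap in any diet. Cpt1a (-0.02) and Acadl (-0.11) did not pass.

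Of 21 regulators of endothelial fatty acid uptake 4 rose, 7 fell and 10 did not pass (48.2% of all genes passed). Meox1, the close relative of Meox2, rose by 0.66 (SE 0.13, adjusted p = 0.000104). Ppard fell by 0.26 (adjusted p = 0.000141), unlike its relative Pparg, and Ppara was at 0.15 (adjusted p = 0.624). Aplnr, the apelin receptor and also a general capillary marker, fell by 0.32 (adjusted p = 0.000291). Vegfb was at 0.03 (adjusted p = 0.821). In these 5 lists the median log2 changes were 0.16, -0.18, -0.04, -0.06 and -0.08, in the order given, beside -0.01 over all genes.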

How the data were processed

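Per the submitters' processing notes, reads were processed with FastQC, Trim Galore, Picard, STAR and Salmon on mRatBN7.2 (rn7). Their order, versions and annotation are not given in the sources used here. Libraries were made with SMART-Seq v4, per the labels. The authors deposited estimated counts per gene (13.6% of values not whole), which were rounded here, and 0 columns were left out. The main test was edgeR 4.0.16 quasi-likelihood (R 4.3.3): filterByExpr (count 10, total 15), TMM, 6 group means plus series, all 30 libraries in 1 fit, and Benjamini-Hochberg adjustment over 16171 genes. Intervals (95%) come from the SE and the fit's degrees of freedom. CPM are TMM-scaled. DESeq2 1.42.0 and limma 3.58.1 were alternatives, beside other scaling, no filter, no series term, leaving out each library, and fits within series, RT1-CE16 (high above 100 CPM) or sex (Ddx3y above 10 CPM). Replicates differed beyond sampling noise (chi-square per degree of freedom at least 20.1 in 60 pairs). On simulated control-diet counts of 16171 genes the test recovered 80 of 100 genes changed 2-fold and 100 of 100 changed 4-fold, with 10 false calls. Only genes with a mean above 1 CPM were changed and all others were left unchanged, whereas 24.9% of genes were called in the data. The recovery therefore holds for the simulated setting and gives no rate for the members. Members, lists, markers and the named genes (all members, a preset few per list, and the 2 genes most like each member with a mean of at least 1 CPM) were chosen with earlier results of these data known. One preset gene is not reported here. Fits within RT1-CE16, sex and series B were added after seeing the data.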

Additional observations from a re-analysis of the deposited data

Results flagged for a closer look

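In 4 of the 54 sets of 5 libraries examined (9 genes in 6 groups), 1 library stood apart from the other 4 of its group. The measure is its gap to the nearest library divided by the range of the group, with a critical value of 0.71. Chance marks about 1 group in 20, which is 2.7 of 54. Lpl in sham control replicate 3 was at 797 CPM where the others were between 497 and 580 CPM (0.723), so the spread of the sham control group for Lpl rests largely on that library. Fabp5 in sham excess replicate 5 was at 137 CPM where the others were between 77.5 and 92.8 CPM (0.745). Pparg in Glenn excess replicate 5 was at 6.30 CPM against 3.74 to 4.22 CPM (0.813), and Slc27a3 in sham control replicate 2 was at 6.11 CPM against 4.13 to 4.63 CPM (0.745). These 4 values fell in 4 different libraries.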

How the results depend on the processing

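Counts of members called for Glenn against sham moved by over 1.5 times only in fits of fewer libraries. On the control diet 4 became 2 in RT1-CE16-low, 2 in RT1-CE16-high and 2 in male libraries. On the deficient diet 6 became 3 in series A, 2 in series B, 2 in RT1-CE16-high and 3 in female libraries. Series B and RT1-CE16-high are the same libraries on that diet. On the excess diet 4 became 1 in males. For excess against control after Glenn, 0 became 2 within series A (with 2 Glenn excess libraries), 1 with DESeq2 and 1 with limma voom. Leaving out each library gave 4 to 5 calls on control, 4 to 6 on deficient, 3 to 4 on excess, 7 throughout when averaged, 0 to 1 for excess against control after Glenn, and 0 in the other comparisons.

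Over all alternatives, of 1881 member values 1803 kept their side of the threshold, 65 lost a call and 13 gained one. No called value changed sign, while 137 values uncalled in both fits did. Lpl passed in each diet under every alternative run. Another scaling (DESeq2 size factors in edgeR) shifted the median of all genes by at most 0.016.

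The replicate numbers were not taken as pairs: same-numbered sham and Glenn libraries had correlations of their deviations between -0.246 and 0.231, over 0.1 in 7 of 15 pairs, and 5 of 15 matched best with their own number. The numbers do share library features, since replicates 1 (male) and 2 (female) were RT1-CE16-low in all 6 groups. With the replicate number as a block, 4, 5, 3 and 7 members were called on control, deficient, excess and averaged, and 0 in the diet and interaction comparisons. The block lost Pparg on deficient (0.69, adjusted p = 0.0504) and Fabp4 on excess (0.57, adjusted p = 0.252). Angptl4, Tcf15 and Pparg lie at a few CPM, where counting error adds most to the spread.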
